A study of Homo sapiens with 15 samples.

Results

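The 10 genes LUC7L, LUC7L2, LUC7L3, RBM5, RBM10, RBM25, RBM39, SON, SRRM1 and SRRM2 encode LUC7-like proteins, RNA-binding-motif (RBM) splicing regulators and proteins of nuclear speckles. Their introns were taken by gene name from 4 intron tables, each of which set 1 clone against wild-type cells. They came to 224 of the 111143 introns in any table. LUC7L had 15 listed introns, LUC7L2 had 12, LUC7L3 had 22, RBM5 had 28, RBM10 had 26, RBM25 had 22, RBM39 had 35, SON had 17, SRRM1 had 23 and SRRM2 had 24. For each intron the tables gave retained reads, which cross an exon-intron boundary, and spliced reads, which join the 2 exons. The retention level is the share of retained reads after each kind is divided by its effective length, that is, how many read positions can show it.

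The cells were HCT116, an established line from a human colon cancer, either wild type (WT) or deficient in the small noncoding RNA bktRNA1, in the 4 clones KO-1 to KO-4. PolyA-selected RNA was sequenced from 3 libraries per group, from independent experiments per the series' design. Each clone is a single isolate set against the same 3 WT libraries, so each p-value speaks of that clone and this line, and the 4 comparisons share their controls. The level of bktRNA1 itself was not analysed here.

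Pre-mRNA splicing begins when U1 snRNP pairs with the 5′ splice site, and LUC7-like proteins are U1-associated factors that affect which 5′ splice sites are used. RBM proteins of this group bind pre-mRNA or early spliceosomes and change exon choice, and RBM39 resembles the 3′ splice-site factor U2AF2. SON and SRRM2 are scaffold proteins of nuclear speckles, the nuclear bodies where splicing factors gather, and SRRM1 is a splicing coactivator found with them. Genes of this kind are known for retained introns and for poison exons, whose inclusion brings an early stop codon and decay of the mRNA by nonsense-mediated decay (NMD).

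The introns whose retention passed the threshold in a clone are shown by their splice sites, whose link to the changes was not tested. Sequences were read from GENCODE 29 transcripts (GRCh38) that run through the site, 5′ to 3′ on the gene's strand. At the 5′ site the capitals mark the first 6 intron bases, and at the 3′ site the last 3 intron bases.
RBM39 intron 2, 5′ site: aagGTGAGAaaaaacatgtc
RBM39 intron 2, 3′ site: tgatgttcttctatcaaccctgctTAGgat
RBM39 NMD exon inside intron 2, 5′ site: aagGTAGTAattgagtgact
SRRM2 intron 12, 5′ site: gagGTGAGTgctgtcttgcc
SRRM2 intron 12, 3′ site: gctattgggtcctactgtgttcccCAGgtc
SRRM2 124-base intron, 5′ site: aagGTGGGTctgaggctggc
SRRM2 intron 11, 3′ site: ccttgtgacactcctctcctcccaCAGggt
LUC7L3 intron 10, 5′ site: gagGTAAGTgtattgtttct
LUC7L3 intron 10, 3′ site: catttttccccaaattttgcgttgTAGgac
The 5 hexamers shown at the 5′ sites all differ, and LUC7L3 intron 10 starts with GTAAGT and SRRM2 intron 12 with GTGAGT. Among the 85 of 224 introns whose 5′ site could be read in this way, 17 started with GTGAGT and 8 with GTAAGT (9.41%). Of all 28473 readable introns, 3571 started with GTGAGT (12.5%) and 2614 with GTAAGT (9.18%).

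In WT the 10 genes held a mix of well-spliced and mostly retained introns. The 147 introns of the principal transcripts had a median WT retention level of 0.553%, and 1 of them was above 50%. The other 77 listed introns, which belong to alternative transcripts, had a median of 83.2%, and 50 of them were above 50%. For such an intron, reads from a transcript in which the same stretch is exon also count as retained. Over all 224 introns 22.8% were above 50%, against 12.7% of the 111143 introns in any table. The medians by gene ran from 0.257% in RBM25 to 17.2% in RBM39. RBM10, an X-linked regulator of exon skipping, had no intron above 50%, and LUC7L3 had 9 of 22.

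**Figure D1:**
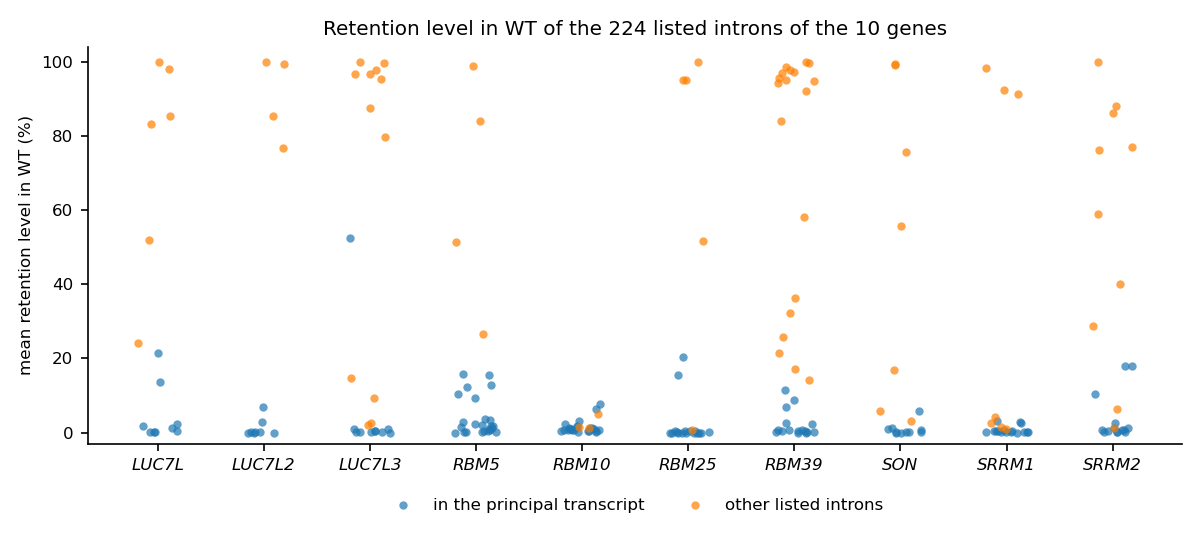
Mean retention level in WT (vertical axis, %) of each of the 224 listed introns, by gene (horizontal axis). Blue points are introns of the principal transcript, whose median is 0.553%, and orange points are introns of other transcripts, whose median is 83.2%.

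The libraries held 17287797 to 35348260 junction reads, with KO-1 the shallowest group. Retained reads were 22.5 to 27.2% of the junction reads of the 10 genes, against 12.3 to 13.7% over all introns. Of 10 colon epithelium markers, 7 were listed, with a summed level of 4618 to 6874 CPM (spliced reads scaled to a common library total). None of 4 blood, 2 liver or 3 endothelium markers was listed, and of 5 mesenchyme markers COL1A1 was listed, at 5.15 to 11.3 CPM.

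Few introns of the 10 genes changed in retention. With a quasi-binomial test of retained against spliced reads, adjusted by Benjamini-Hochberg over all introns tested in the table, 1 of 66 introns rose in KO-1, where 1.29% of all tested introns rose. KO-2 had 2 of 72 (1.3% of all introns) and KO-4 had 3 of 74 (1.54% of all introns). KO-3 had 0 of 67, beside 0.558% of all introns. No intron of these genes fell in any of the 4 comparisons, while from the first clone to the fourth 0.175%, 0.304%, 0.155% and 0.429% of all introns did. From the first clone to the fourth, the introns that rose were 1.52, 2.78, 0 and 4.05% of those tested in the 10 genes. With counts this small, a difference from the shares of all introns cannot be judged. With limma on log2 odds per library none of the 6 calls passed (adjusted p 0.29 to 0.62), and with changes centred on the median intron LUC7L3 in KO-2 was the 1 that passed among them. At an unadjusted p under 0.05, KO-1 had 8 higher introns, or 12.1% of those tested in the 10 genes, beside 8.51% of all introns. KO-2 had 12 (16.7% beside 8.23%), KO-3 had 4 (5.97% beside 4.83%) and KO-4 had 11 (14.9% beside 11%). From the first clone to the fourth, 0, 1, 2 and 1 introns were lower at that p, or 0, 1.39, 2.99 and 1.35%, beside 2.31, 3.62, 3.42 and 2.81% of all introns. The median log2 odds change of the genes' tested introns was 0.21 in KO-1 (0.13 over all introns) and 0.13 in KO-2 (0.10). For KO-3 it was 0.06 (0.02), and for KO-4 0.18 (0.17).

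**Figure D2:**
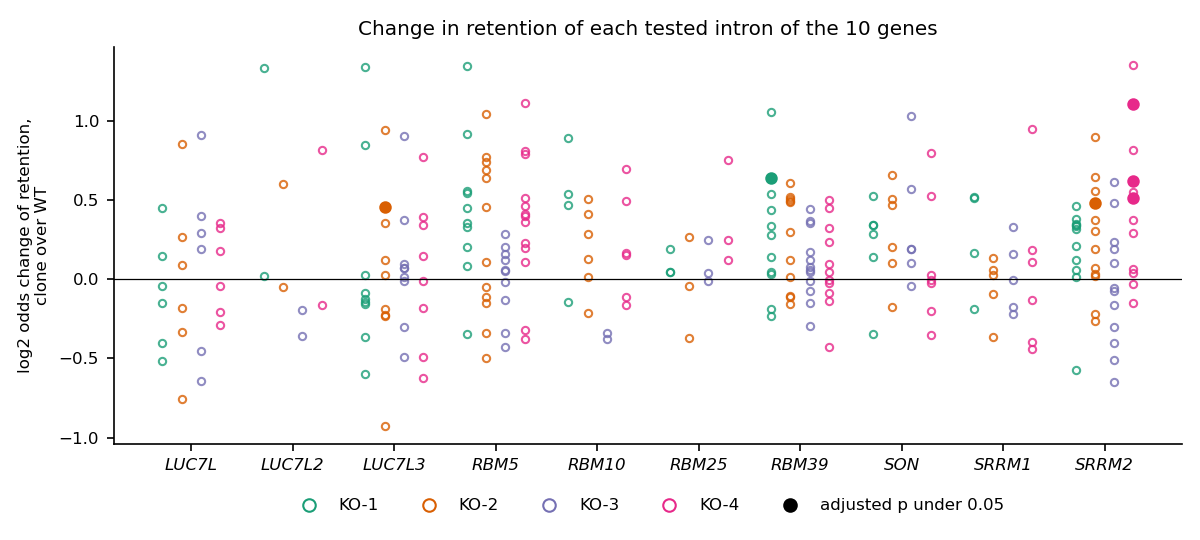
Log2 odds change of retention, clone over WT (vertical axis), of each tested intron by gene (horizontal axis) and clone (colour). Filled points passed the threshold: RBM39 in KO-1, LUC7L3 and SRRM2 in KO-2, and 3 SRRM2 introns in KO-4.

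Among the LUC7-like genes, LUC7L3 intron 10 of 10 was the called intron. It lies in the 3′ UTR at chr17:50750695-50752199 on the plus strand. In the protein-coding transcript LUC7L3-208 this whole stretch is exon, and 8 other annotated exons overlap it. Reads from such transcripts can also count as retained. The WT libraries had retention levels of 57.3, 49.9 and 50.6%, and the KO-2 libraries 61.1, 59.3 and 60.1%. The KO-2 libraries lay above all WT libraries, and the WT library listed 1st was nearest to them. The log2 odds change was 0.46 ± 0.10 (SE), with an adjusted p of 0.0022 in the quasi-binomial test. Without the WT library listed 2nd it was 0.37 with an adjusted p of 0.094. In the authors' deposited table for KO-2 the adjusted p of this intron was not under 0.05. The WT mean was 52.6% ± 4.1, and the other clones had 49.7% ± 1.1 (KO-1), 53.4% ± 2.9 (KO-3) and 49.3% ± 1.4 (KO-4; SD, n = 3).

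The tested introns that lie inside LUC7L3 intron 10 were not called for retention in any clone. The 444-base intron at chr17:50750853-50751296 was retained at 96.8% ± 0.42 in WT (SD, n = 3) and at 96.9 to 97.5% in the clones. The 837-base intron at chr17:50751363-50752199, which shares the 3′ splice site of intron 10, had 96.6% ± 0.99 in WT and 98.1 to 98.7% in the clones, with the smallest adjusted p, 0.25, in KO-1. It was supported by 61 spliced reads over the WT libraries and 15 over those of KO-1. The intron at chr17:50750853-50752199 also shares the 3′ splice site of intron 10. Its log2 odds change was -0.60 in KO-1 and ran from -0.01 to 0.07 in the other clones. These introns share boundary reads or sequence with intron 10, so the results are not independent.

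LUC7L intron 9 of 9, at chr16:189340-189967 on the minus strand, was not called in any clone. Its WT libraries had 20.6, 21.8 and 22.4%, and those of KO-2 had 10.3, 14.6 and 17.3%. The KO-2 libraries were all below those of WT, with a log2 odds change of -0.76 ± 0.24 and an adjusted p of 0.11. The means of the other clones ran from 16.4 to 18.3%, with changes of -0.51 to -0.29 and adjusted p of 0.46 to 0.62. In the authors' deposited table for KO-2 this intron has an adjusted p of 0.0216 and a difference of -7.5 percentage points. A second LUC7L intron, the 876-base one at chr16:228403-229278, rested on 90 retained and 40 spliced reads over the WT libraries. Its mean level was 51.9% ± 8.3 in WT and 48.5 to 67.1% in the clones, and it was not called.

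LUC7L2 had a pair of introns with enough reads in all 4 clones. Intron 1 of 9, at chr7:139360323-139376061 on the plus strand, is 15739 bases long and had WT levels of 2.49, 2.61 and 3.90%. The KO-1 libraries had 7.37, 6.10 and 7.94%, all above WT. The log2 odds change was 1.33 ± 0.39, and the adjusted p of 0.064 missed the threshold. Without the WT library listed 3rd the adjusted p was 0.012. The authors' deposited table for KO-1 gives an adjusted p of 0.0108 for this intron. The means in KO-2, KO-3 and KO-4 were 4.49, 2.63 and 5.19%. Intron 9, at chr7:139417730-139422162, had 6.89% ± 0.75 in WT and 5.42 to 6.95% in the clones. It is 1 of 7 LUC7L2 introns that the tables list also under the readthrough gene FMC1-LUC7L2, so its reads may come from either.

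RBM39 held the called intron of the RBM genes. Intron 2 of 16, at chr20:35739018-35740823 on the minus strand, had WT levels of 9.26, 8.15 and 9.25%. The KO-1 libraries had 13.4, 12.7 and 13.5%. They lay above all WT libraries, with a log2 odds change of 0.64 ± 0.18 and an adjusted p of 0.046. Leaving out the WT library listed 1st or that listed 2nd, or any single KO-1 library, ended the call, with adjusted p of 0.088 to 0.27. KO-2 had a mean of 12.3% ± 2.3 (adjusted p 0.14, and 0.040 without KO-2 listed 3rd), KO-3 of 11.1% ± 1.4 (0.52) and KO-4 of 9.39% ± 1.8 (0.87; SD, n = 3). The RBM39 intron at chr20:35739018-35740524 lies inside intron 2, shares its 3′ splice site and was not called in any clone. Its log2 odds changes were all below 0, from -0.19 in KO-1 to -0.07 in KO-3 (quasi-binomial test, adjusted p 0.88 to 0.97).

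The other RBM genes had no called intron. In RBM5, a tumour suppressor that regulates exon choice in apoptosis genes, the 990-base intron at chr3:50109689-50110678 had WT levels of 14.3, 38.9 and 26.6%. The KO-4 libraries had 40.6, 42.0 and 43.7%, all above WT, with a log2 odds change of 1.12 ± 0.51 and an adjusted p of 0.29. The means in KO-1, KO-2 and KO-3 were 46.6, 40.3 and 26.2%, with adjusted p of 0.35, 0.40 and 0.99. These values rest on 43 retained and 64 spliced reads over the WT libraries. RBM10 intron 1 of 23, in the 5′ UTR at chrX:47145486-47147356, had 7.73% ± 1.6 in WT and 6.33 to 8.55% in the clones, less than the spread between libraries.

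RBM25, which binds exonic enhancers and is linked to U1 snRNP, had a pair of introns of this kind. Intron 16 of 19, at chr14:73111156-73111527 on the plus strand, had 20.3% ± 0.74 in WT (SD, n = 3). The clones had 20.3 to 23.5%, with adjusted p of 0.53 or more. The 550-base intron at chr14:73099751-73100300 had 51.6% ± 3.2 in WT and 44.9 to 64.3% in the clones. Its adjusted p was 0.58 in KO-4, where the level was highest.

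SRRM2 held 4 of the 6 calls, in intron 11, intron 12 and a short intron nested in intron 12. Intron 12 of 14, at chr16:2769285-2770351 on the plus strand, had WT levels of 16.6, 13.7 and 23.3%. The KO-4 libraries had 23.1, 24.6 and 23.6%, and those of KO-2 ran from 21.0 to 25.0%. Both clones overlapped WT through the library listed 3rd. The log2 odds change was 0.51 ± 0.11 in KO-4, with an adjusted p of 0.0016, and 0.48 ± 0.12 in KO-2, with an adjusted p of 0.012. The means in KO-1 and KO-3 were 21.5% ± 1.6 and 19.7% ± 4.7, with adjusted p of 0.35 and 0.80.

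The calls in SRRM2 intron 12 depended on single WT libraries. Without the WT library listed 3rd the log2 odds change was 0.62 in KO-1 and 0.50 in KO-3, with adjusted p of 0.00016 and 0.0090, so both passed. Without the WT library listed 2nd it was 0.26 in KO-2 (adjusted p 0.42) and 0.30 in KO-4 (0.19), so neither passed. The KO-2 call also ended when the WT library listed 1st, or the KO-2 library listed 1st or that listed 2nd, was left out, with adjusted p of 0.086 to 0.13.

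The neighbouring SRRM2 introns were higher in KO-4 too. Intron 11, at chr16:2768262-2768996, had 9.70, 8.46 and 13.2% in WT and 13.3, 15.6 and 17.8% in KO-4. These groups did not overlap, by a narrow margin, and the log2 odds change was 0.62 ± 0.15 with an adjusted p of 0.0087. It ended when WT listed 1st, WT listed 2nd, KO-4 listed 2nd or KO-4 listed 3rd was left out (adjusted p 0.065 to 0.12). The 124-base intron at chr16:2770228-2770351, which shares the 3′ splice site of intron 12, had 85.2, 84.0 and 89.5% in WT and 93.6, 91.0 and 96.1% in KO-4. Its log2 odds change was 1.11 ± 0.31 with an adjusted p of 0.033, and the call ended without WT listed 1st, WT listed 2nd, KO-4 listed 1st or KO-4 listed 3rd (adjusted p 0.14 to 0.20). Without WT listed 3rd, KO-2 also passed for the 124-base intron (adjusted p 0.028) and for intron 11 (0.015), and KO-1 passed for intron 11 (0.046). Since the 124-base intron lies inside intron 12, the calls share reads at 1 boundary.

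**Figure D3:**
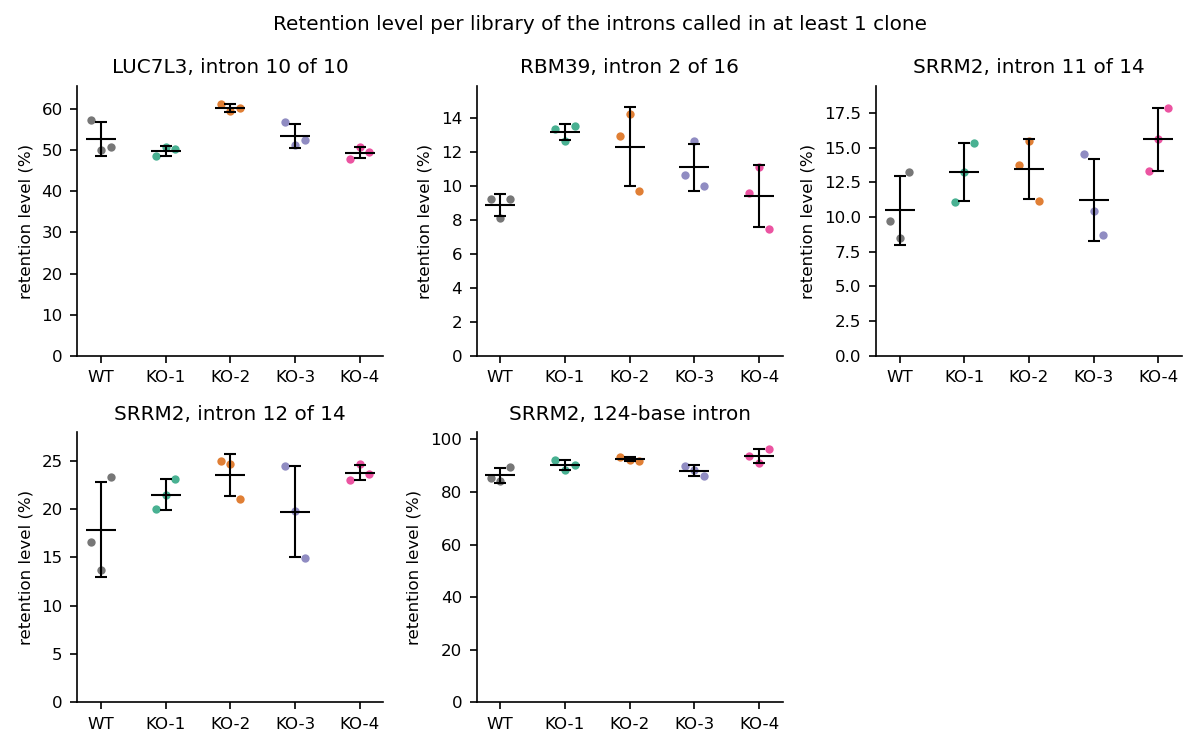
Retention level (vertical axis, %) in each library (points) by group (horizontal axis) for the 5 introns called in at least 1 clone. Bars are the mean and SD of 3 libraries. In SRRM2 intron 12 the WT library listed 3rd, at 23.3%, sits among the clones.

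SRRM2 intron 9, at chr16:2759662-2760300, had 17.9% ± 2.1 in WT (SD, n = 3). Its means were 25.4% ± 5.4 in KO-2 (adjusted p 0.084) and 24.1% ± 1.1 in KO-4 (0.098), then 21.5% ± 2.5 in KO-1 (0.54) and 14.1% ± 2.4 in KO-3 (0.66), so none of these differences from WT passed. Single libraries or settings decided this. KO-2 passed without WT listed 3rd (adjusted p 0.028), without KO-2 listed 3rd (0.015) and with no read minimum (0.024), and KO-4 passed without WT listed 3rd (0.035). The 397-base intron at chr16:2768600-2768996 was retained at 88.2% ± 7.2 in WT and at 86.1 to 92.2% in the clones, within the WT spread.

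SON and SRRM1 had no called intron. SON intron 6 of 11, at chr21:33559776-33567156 on the plus strand, had 1.54, 1.38 and 1.05% in WT and 3.66, 2.81 and 1.55% in KO-3. Those KO-3 libraries were all above WT, with a log2 odds change of 1.03 ± 0.39 and an adjusted p of 0.33, on 41 retained reads over the WT libraries. The changes in KO-1, KO-2 and KO-4 were 0.34, 0.66 and 0.80 (quasi-binomial test, adjusted p 0.85, 0.54 and 0.31). The 3463-base SON intron at chr21:33569088-33572550 had 75.6% ± 2.7 in WT and 76.4 to 79.9% in the clones. SRRM1 intron 14 of 16, at chr1:24669588-24670119, had 2.73% ± 1.2 in WT and 2.80 to 3.72% in the clones. The 3590-base SRRM1 intron at chr1:24663225-24666814 had 4.13% ± 1.0 in WT and 3.74 to 5.55% in the clones.

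The 4 clones were also compared with each other, which uses no WT library. With clone as a factor in the quasi-binomial model over 12 libraries, 4 of 70 introns of the 10 genes differed, against 6.41% of the 21223 introns tested. LUC7L3 intron 10 differed most (adjusted p 1.2e-08), with the KO-2 libraries at 59.3 to 61.1% and all other clone libraries at or below 56.7%. SRRM2 intron 9 (0.00024) was lowest in KO-3. The 343-base SRRM2 intron at chr16:2769285-2769627 (0.017), which shares the 5′ splice site of intron 12, ran from 74.3% ± 3.6 in KO-2 to 85.6% ± 4.5 in KO-4, with 77.0% ± 7.1 in WT. LUC7L2 intron 1 (0.026) ran from 2.63% in KO-3 to 7.14% in KO-1. With limma on log2 odds, 0 introns of the 10 genes differed among the clones.

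Spliced reads summed per gene served as a measure of spliced mRNA. They were scaled by the median ratio over genes and tested with limma on a log2 scale with 0.5 added, over 9471 genes. In bulk RNA a change in the sum cannot tell fewer expressing cells from less RNA per cell. The 10 genes moved by 0.23 or less in either direction on the log2 scale in all comparisons except RBM39 in KO-3, RBM5 in KO-2 and KO-4, and LUC7L in KO-4. One of the 10 genes rose in KO-1, where 13.7% of all genes rose, and none fell, where 12.5% fell (all 10 changes were above 0). In KO-2, 1 rose and 1 fell, against 21.9% and 21.1% of all genes. In KO-3, 3 rose and 1 fell, against 15% and 15.6%. In KO-4, 2 rose and 3 fell, against 24.6% and 24.2%. The median size of change, without its sign, was 0.05 in KO-1 (0.13 over all genes) and 0.07 in KO-2 (0.18). For KO-3 it was 0.13 (0.14), and for KO-4 0.12 (0.20).

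RBM5 had the largest change of the 10 genes. Its WT libraries had 4653, 4021 and 4440 scaled spliced reads, those of KO-2 had 6002, 6000 and 5342, and those of KO-4 had 5692, 5439 and 5300. Both clones lay above WT without overlap. The log2 fold change was 0.40 ± 0.07 (SE) in KO-2 (limma adjusted p 5.4e-05) and 0.33 ± 0.07 in KO-4 (0.00042). In KO-3 it was 0.18 ± 0.07 with an adjusted p of 0.056, which became 0.030 to 0.041 without WT listed 1st, KO-3 listed 2nd or KO-3 listed 3rd, and in KO-1 0.03 ± 0.07 with 0.79. Of the RBM5 introns, 3 are listed also under the neighbouring gene RBM6, whose reads cannot be told apart there.

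RBM39 rose in KO-3. Its WT libraries had 9713, 9336 and 9813 scaled spliced reads and its KO-3 libraries 12727, 11166 and 10858, without overlap. The log2 fold change was 0.26 ± 0.05 with a limma adjusted p of 0.00052, and the other clones had changes of -0.01 to 0.13, none of them called. RBM25 had 2630, 2646 and 2354 in WT and 2300, 2303 and 2316 in KO-4. Its log2 fold change in KO-4 was -0.14 ± 0.05 with a limma adjusted p of 0.040. That call ended without WT listed 1st, WT listed 2nd or any single KO-4 library (adjusted p 0.070 to 0.16), and with total scaling (0.089). In the other clones RBM25 was not called, but it was lower in KO-2 and KO-3 without WT listed 3rd (adjusted p 0.028 and 0.022) and in KO-3 with total scaling (0.0067), and higher in KO-1 with all introns of that table (0.039). RBM10 was not called in any clone, with changes of -0.08 to 0.10.

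The LUC7-like genes moved differently from clone to clone. LUC7L had 1864, 1879 and 1899 scaled spliced reads in WT and 2389, 2511 and 2193 in KO-4, without overlap, and rose there by 0.33 ± 0.06 (log2, limma adjusted p 0.00013). It was called in KO-3 as well without KO-3 listed 2nd (adjusted p 0.044). LUC7L3 had 5902, 5829 and 5817 in WT and 5025, 5085 and 5358 in KO-4, and fell there (log2 fold change -0.18 ± 0.05, limma adjusted p 0.0024). LUC7L3 rose in KO-1 (0.13 ± 0.05, limma adjusted p 0.043) and in KO-3 (0.12 ± 0.05, 0.046). LUC7L2 rose in KO-3, from 4471, 4226 and 4089 to 4609, 4804 and 4700 (0.14 ± 0.05, limma adjusted p 0.028). Of the LUC7L2 introns, 7 are listed also under the readthrough gene FMC1-LUC7L2, whose reads cannot be told apart there. These smaller rises of LUC7L2 and LUC7L3 each passed by little. Scaled by total spliced reads, none of the 3 passed (adjusted p 0.072 for LUC7L3 in KO-1, 0.41 for it in KO-3 and 0.28 for LUC7L2). LUC7L3 in KO-1 was lost without any single library (adjusted p 0.052 to 0.17). LUC7L3 in KO-3 was lost without any single WT library, KO-3 listed 1st or KO-3 listed 3rd (0.069 to 0.18). LUC7L2 was lost without WT listed 2nd, WT listed 3rd, KO-3 listed 2nd or KO-3 listed 3rd (0.062 to 0.12).

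Among the speckle genes, SRRM1 fell in KO-2 and KO-4 and SRRM2 fell in KO-3. SRRM1 had 4831, 5015 and 5031 scaled spliced reads in WT, 4491, 4206 and 4769 in KO-2, and 4475, 4474 and 4217 in KO-4. The log2 fold changes were -0.15 ± 0.05 (limma adjusted p 0.026) and -0.18 ± 0.05 (0.0069), and neither clone overlapped WT. The KO-2 call ended without WT listed 2nd, WT listed 3rd, KO-2 listed 1st or KO-2 listed 2nd (adjusted p 0.059 to 0.16). The annotation holds processed copies of SRRM1 (SRRM1P2 and SRRM1P3), to which reads of its exons could also map. SRRM2 had 6093, 5709 and 6656 in WT and 5140, 5466 and 5107 in KO-3, without overlap (-0.23 ± 0.06, limma adjusted p 0.0061). SON did not pass in any clone, with changes of -0.06 to 0.05.

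**Figure D4:**
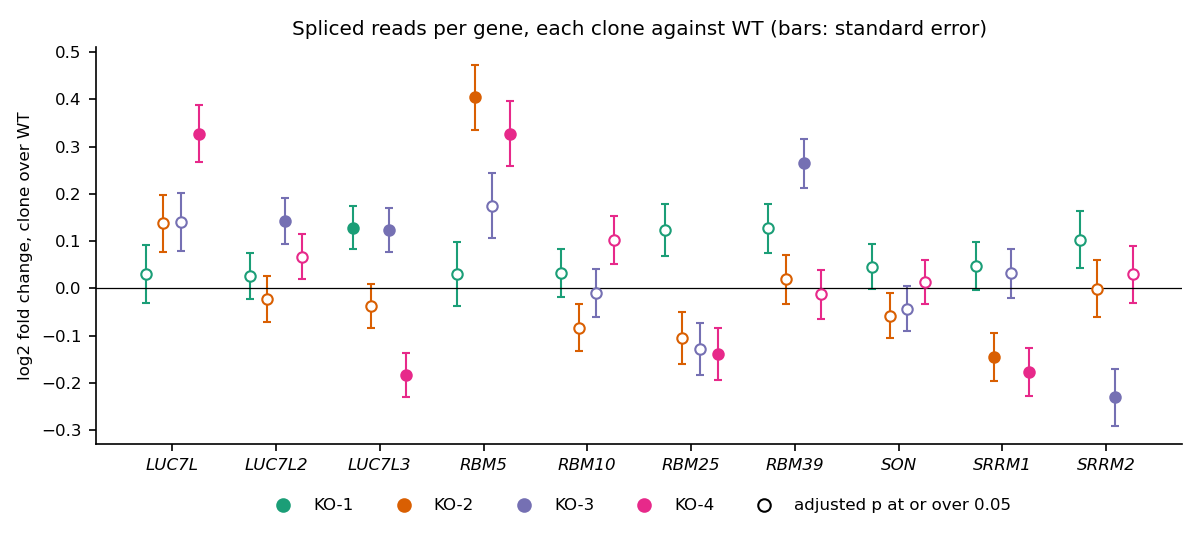
Log2 fold change of spliced reads per gene, clone over WT (vertical axis), with its standard error, by gene (horizontal axis) and clone (colour). Filled points passed the threshold. RBM5 in KO-2, at 0.40, is the highest.

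The clones differed among themselves in 9 of the 10 genes, against 75.7% of the 9467 genes tested (limma over 12 libraries). SON was the exception, with an adjusted p of 0.15. Of 10 colon epithelium markers 6 were tested, and 1 was higher and 3 were lower than WT in KO-1. KO-2 also had 1 higher and 3 lower, KO-3 had 4 higher and 0 lower, and KO-4 had 1 higher and 2 lower. The markers did not move one way: from the first clone to the fourth, the log2 fold changes of EPCAM were -1.06, -0.99, 0.14 and -0.59, and those of KRT19 were 0.24, 0.50, 0.46 and 0.79. Their part in the gene results was not tested.

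The use of competing junctions was compared for introns that share a splice site, as the share of spliced reads at that site. This comparison was added after the data were seen. It uses spliced reads that also enter the retention tests, so the results are not independent. Of the junctions of the 10 genes, 3 of 44 were called in KO-1, where 5.99% of all tested junctions were. KO-2 had 5 of 45 (9.51% of all junctions), KO-3 had 0 of 45 (3.36%) and KO-4 had 1 of 44 (7.42%). At an unadjusted p under 0.05, 12 junctions differed in KO-1, or 27.3% beside 17.8% of all junctions tested. KO-2 had 17 (37.8% beside 21.6%), KO-3 had 5 (11.1% beside 14.8%) and KO-4 had 9 (20.5% beside 19%).

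RBM39 used the junction out of its NMD exon more in KO-1 and KO-2. The junction at chr20:35739018-35740524 joins a 73-base exon inside intron 2 to the following exon, and the annotation has it in 8 NMD transcripts and no protein-coding one. Its share at the 3′ splice site was 9.19, 8.76 and 7.03% in WT, 14.9, 14.6 and 11.9% in KO-1, and 11.6, 14.2 and 11.7% in KO-2. Both clones lay above WT. The log2 odds change was 0.83 ± 0.21 in KO-1 (quasi-binomial test, adjusted p 0.0046) and 0.65 ± 0.20 in KO-2 (0.024). The means in KO-3 and KO-4 were 11.0% ± 1.7 and 9.13% ± 3.3, with adjusted p of 0.25 and 0.77. The junction that skips the exon fell in KO-1, from 90.9% ± 1.1 to 86.2% ± 1.6 (adjusted p 0.042), which counts the same reads from the other side. The KO-1 rise was lost without the KO-1 library listed 1st or 2nd (adjusted p 0.066 and 0.059), and the KO-2 rise without WT listed 2nd, WT listed 3rd or KO-2 listed 2nd (0.066 to 0.14). The fall of the skipping junction ended without WT listed 2nd, WT listed 3rd, KO-1 listed 1st or KO-1 listed 2nd (0.066 to 0.21). At the 5′ splice site of intron 2, where the way into the exon starts, no junction was called in KO-1 or KO-2.

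In SRRM2 the junction shares moved at 2 places in KO-2. Its 2nd exon, 273 bases long, is either included or skipped. The junction into it, at chr16:2752847-2756333, took 65.3, 64.7 and 53.9% of the reads at its 5′ splice site in WT and 77.8, 76.8 and 73.4% in KO-2, without overlap. The log2 odds change was 0.91 ± 0.28, with an adjusted p of 0.020. The junction out of it, at chr16:2756607-2757471, rose from 77.8% ± 2.3 to 87.1% ± 2.1 in KO-2 (adjusted p 0.010) and to 85.7% ± 3.3 in KO-4 (0.030). In KO-4 the junction into the exon was at 62.0% ± 12 (adjusted p 0.94), against 61.3% ± 6.4 in WT. An 85-base junction inside intron 9, at chr16:2759662-2759746, rose from 14.9% ± 1.6 to 23.2% ± 2.4 in KO-2 (0.78 ± 0.22, adjusted p 0.014). Each of these calls was lost without at least 1 single library: the way in without WT listed 3rd, KO-2 listed 1st or KO-2 listed 2nd, the way out without KO-2 listed 1st, and the 85-base junction without WT listed 2nd or KO-2 listed 2nd (adjusted p 0.079 to 0.10). In KO-4 the way out ended without WT listed 1st, WT listed 2nd, KO-4 listed 1st or KO-4 listed 2nd (0.052 to 0.32).

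SRRM1 and LUC7L3 had 1 called junction each. At intron 9 of SRRM1 a pair of 5′ splice sites lie 6 bases apart. The downstream one, at chr1:24655130-24660718, took 78.2, 74.7 and 79.8% of reads in WT and 70.8, 68.8 and 67.7% in KO-2, without overlap (-0.63 ± 0.20, adjusted p 0.030). This fall ended without WT listed 1st, WT listed 3rd, KO-2 listed 2nd or KO-2 listed 3rd (adjusted p 0.069 to 0.13). The 837-base LUC7L3 junction inside the 3′ UTR intron fell from 4.07% ± 1.0 to 1.40% ± 0.47 in KO-1 (-1.55 ± 0.51, adjusted p 0.031). This junction rests on the few spliced reads given above for the 837-base intron. Its call ended without WT listed 1st, WT listed 3rd or any single KO-1 library (adjusted p 0.054 to 0.16).

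**Figure D5:**
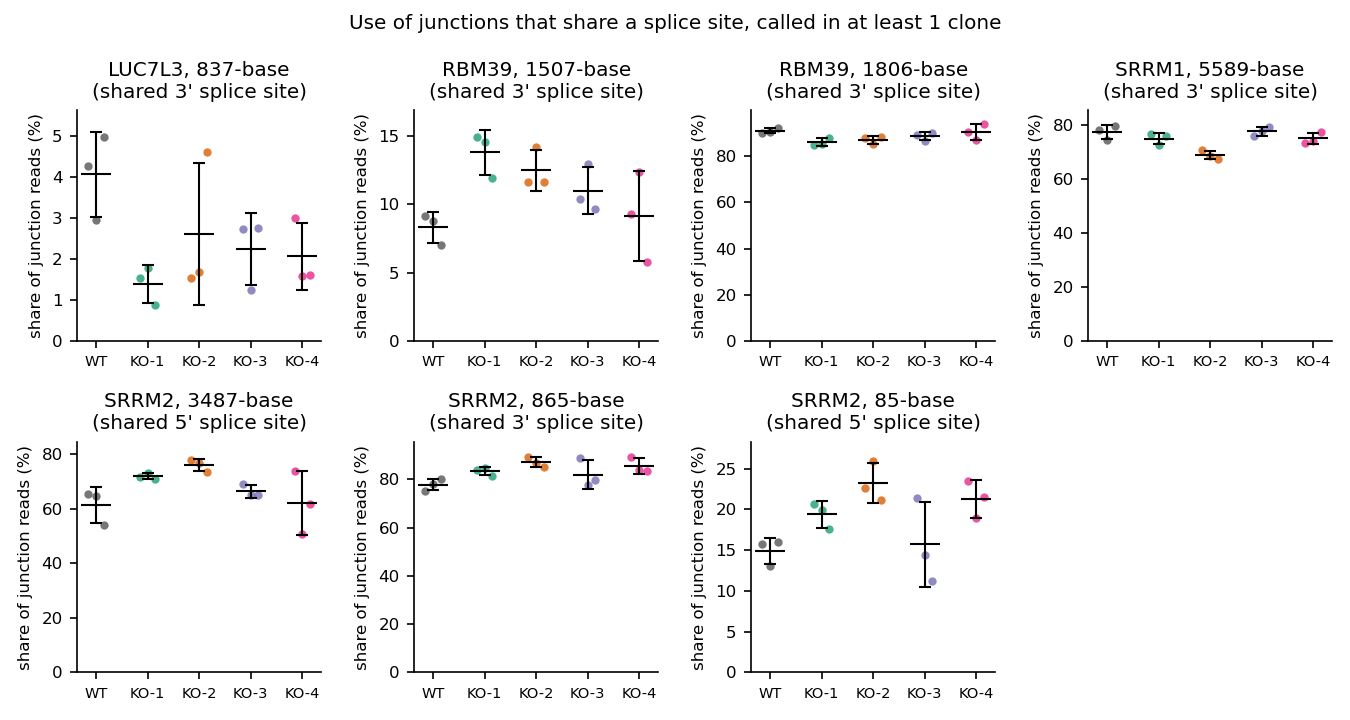
Share of spliced reads at a shared splice site (vertical axis, %) taken by each junction called in at least 1 clone, in each library (points) by group (horizontal axis). Titles give the gene, the intron length and the shared site, and bars are the mean and SD of 3 libraries. The RBM39 junction from the NMD exon (1507 bases) lies at 7.03 to 9.19% in WT and at 11.9 to 14.9% in KO-1.

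Genes that work beside the 10 were counted for comparison. The list of 13 U1 snRNP and 5′ splice-site partners was drawn broadly and also holds DDX46, DHX15 and FUBP1. All 13 were tested, and 1 rose and 4 fell in KO-1 (limma, spliced reads per gene). From this list 1 rose and 7 fell in KO-2, 5 rose and 0 fell in KO-3, and 3 rose and 4 fell in KO-4. Of 15 tested 3′ splice-site partners, 0 rose and 2 fell in KO-1, 1 rose and 5 fell in KO-2, 0 rose and 1 fell in KO-3, and 2 rose and 4 fell in KO-4. Of 25 tested other RBM genes, 0 rose and 3 fell in KO-1, 0 rose and 8 fell in KO-2, 1 rose and 4 fell in KO-3, and 4 rose and 5 fell in KO-4. Of 22 other speckle and exon-junction genes, 2 rose and 1 fell in KO-1, 0 rose and 11 fell in KO-2, 3 rose and 1 fell in KO-3, and 1 rose and 8 fell in KO-4. These counts stand beside the shares of all genes given above. Those past the threshold one way in at least 3 clones were TIA1, a U1-recruiting protein, which rose in KO-1, KO-3 and KO-4 (0.23, 0.25 and 0.40), and 5 that fell. SRSF1, an SR protein, fell in KO-1, KO-2 and KO-4 (-0.15, -0.27 and -0.27). RBM12 fell in KO-2, KO-3 and KO-4 (-0.27, -0.45 and -0.28), and RBM19 in KO-1, KO-2 and KO-4 (-0.43, -0.31 and -0.40). RBM33 fell in KO-1 to KO-4 (-0.35, -0.73, -0.46 and -0.50). CWC22, which loads the exon junction complex, fell in KO-1, KO-2 and KO-4 (-0.24, -0.34 and -0.24).

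In retention, the introns of the same lists are set beside the shares of all introns that rose, which from the first clone to the fourth were 1.29, 1.3, 0.558 and 1.54%. Of the introns of the U1 and 5′ splice-site list, 2 of 82 rose and 1 fell in KO-1, 5 of 89 (5.62%) rose and 1 fell in KO-2, 1 of 85 rose and 1 fell in KO-3, and 2 of 92 rose in KO-4. Of the 3′ splice-site list, 2 of 63 (3.17%) rose in KO-2, 1 of 60 fell in KO-3, and 1 of 66 rose and 1 fell in KO-4, with none of 57 called in KO-1. Of the other RBM genes, 2 of 62 introns (3.23%) rose in KO-2, and KO-3 had 1 of 61, KO-4 had 2 of 66 and KO-1 had 0 of 52. Of the other speckle genes, KO-2 had 3 higher introns of 100 (3%) and KO-4 had 1 of 101, while the others had none called.

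For 9 of the 10 genes, all but LUC7L, the most similar profile of CPM of spliced reads, on a log2 scale with 1 added, among 6423 genes over the 15 libraries is given. Libraries of 1 group share a clone, so the Pearson coefficients are descriptions. The highest were LUC7L3 with CD164 (0.944), SRRM2 with TNPO2 (0.937) and RBM5 with UFC1 (0.933), followed by SON with DLG1 (0.923). The others were RBM10 with PDXK (0.906), RBM25 with KPNB1 (0.906), RBM39 with ATF4 (0.882), LUC7L2 with TK1 (0.868) and SRRM1 with PSMD11 (0.86).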

How the data were processed

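The submitters' processing notes name cutadapt 2.0, STAR 2.7.1a and hg38. What counted the junctions, which test the authors ran and how they filtered introns is not given in the sources used here. Deposited by the authors was 1 table per clone with retained and spliced junction reads of 3 libraries in each cell, effective lengths, p-values with adjusted values, and a score for the difference in inclusion level. Replicate numbers are absent from these lists, and libraries are named by their order. The columns give sample numbers only. Values of the 2nd sample are identical in all tables for shared introns, and it was taken as WT.

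Introns were tested where retained and spliced reads each averaged 10 or more per library, with a quasi-binomial model (dispersion moderated with limma 3.58.1 in R 4.3.3, floored at 1, F test), adjusted over all introns by Benjamini-Hochberg with a threshold of 0.05. Per gene, spliced reads over introns listed in all 4 tables were summed (mean of at least 50), scaled by median ratio and tested with limma on all 15 libraries. The plan named another count test, which was not run, and limma was used in its place. Both tests were run on simulated data, and the outcome is not given here. The gene sums were simulated with a fixed spread that was not estimated from these data. Competing junctions needed a mean of 10 reads on both sides and used the quasi-binomial model.

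All 10 genes are named, with each intron called in a clone, up to 3 per gene called among clones, and per gene those with the smallest median adjusted p and the highest WT level among introns tested in all 4. Genes and lists were chosen with earlier results of these data known. Of 224 introns, 76 passed the filter in at least 1 comparison and 61 in all 4. Alternatives were other minimums, centring, limma on log2 odds, other scalings, the authors' adjusted p and leaving out each library. Standard errors cover counting error and library spread only. The gene with the profile most like that of LUC7L is not reported here.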

Additional observations from a re-analysis of the deposited data

Results flagged for a closer look

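The introns and genes below are given because the clones, all set against the same WT libraries, differed from each other in a test of that difference over their 12 libraries. In retention, with the quasi-binomial model and Benjamini-Hochberg adjustment, LUC7L3 intron 10 had an adjusted p of 1.2e-08, SRRM2 intron 9 of 0.00024, the 343-base SRRM2 intron of 0.017 and LUC7L2 intron 1 of 0.026. With limma on log2 odds, 0 introns of the 10 genes differed among the clones. In spliced reads per gene (limma), the adjusted p was 0.0022 for LUC7L, 0.021 for LUC7L2, 9.5e-06 for LUC7L3, 0.00013 for RBM5, 0.018 for RBM10, 0.00024 for RBM25, 0.00025 for RBM39, 0.00057 for SRRM1 and 9.9e-05 for SRRM2. Since 75.7% of all genes tested differed among the clones, a difference in 9 of 10 genes is close to the background. Groups of 3 libraries were not searched for single outlying libraries.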

How the results depend on the processing

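Called results kept their direction under every alternative that was run. Counts of called introns of the 10 genes depended on the test. Shares of all introns, genes or junctions under the alternatives are not given here. These counts therefore describe the settings, and do not set the 10 genes against the background. With limma on log2 odds, 0 introns were called higher in KO-1, KO-2 and KO-4, and 0 differed among the clones. With changes centred on the median intron, 0 were higher in KO-1, KO-2 had 1 and KO-4 had 0, but 1 lower (LUC7L3 intron 10). Without a minimum 2 were higher in KO-1, and with a minimum of 50 reads 1 was higher in KO-2. By the adjusted p of the authors' deposited tables, 4 were higher in KO-1, KO-2 had 3 higher and 1 lower, KO-3 had 1 higher and KO-4 had 4 higher. Leaving out single libraries gave 0 to 4 higher introns in KO-1 and KO-4, 0 to 6 in KO-2 and 0 to 1 in KO-3, with the top value in KO-1 and KO-2 and the KO-3 call without the WT library listed 3rd. It gave 3 to 7 introns that differed among clones. For genes it gave 0 to 0 higher in KO-1, 0 to 1 lower in KO-2, and 1 to 4 higher and 1 to 2 lower in KO-3. For junctions it gave 0 to 3 for KO-1, 1 to 9 for KO-2 and 0 to 1 for KO-4.

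For spliced reads per gene, 0 genes were higher in KO-1 without a minimum or when scaled by total spliced reads. That scaling gave 1 higher and 2 lower in KO-3. With all introns of each table, 0 were lower in KO-2 and 1 was higher in KO-3. The calls of RBM5 in KO-2 and KO-4, RBM39 and SRRM2 in KO-3, and LUC7L, LUC7L3 and SRRM1 in KO-4 were kept under all 10 alternatives. Total scaling, voom, the larger junction minimum and the leave-one-out fits of junctions and of genes among clones were chosen after seeing the data. No paired analysis was possible because replicate numbers are absent from the lists. The edgeR and DESeq2 alternatives were not run. The tested introns of the 10 genes had a median SE of 0.38 on the log2 odds scale in KO-1, and of 0.36 to 0.37 in the other clones.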
